A study of Mus musculus with 2 samples.

Results

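The Mir34 and Mir449 genes form a microRNA family that shares its seed, the bases 2 to 8 of a mature microRNA that pair with target messenger RNAs. Its members were chosen by name, as Mir34a, Mir34b, Mir34c, Mir449a, Mir449b and Mir449c, and all 6 were found among the 2202 annotated miRNA genes of the tables. They were measured by small RNA sequencing in the adrenal gland of female mice 14 days old, of the strain B6CASTF1/J, the F1 hybrid of C57BL/6J and CAST/EiJ. The series holds 1 group of 2 libraries, numbered as biological replicates 1 and 2, with no treatment and no mutant. Replicate 1 is labelled with 3 females and replicate 2 with a single female, and both carry the same donor identifier. Whether the libraries differ in the number of animals pooled is not settled by the labels. The 2 libraries are therefore compared only to show how far each member differed within the same tissue, age and sex.

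The family is known for its link to p53, the tumour suppressor and transcription factor that answers DNA damage. p53 binds near Mir34a and near the joint transcript of Mir34b and Mir34c and raises them, and the mature miR-34 RNAs repress cell-cycle and survival genes such as those of cyclins, cyclin-dependent kinases and Bcl2. The Mir449 genes lie in an intron of Cdc20b and are known from multiciliated epithelium, where miR-449 and miR-34 act together in the building of cilia. Outside ciliated tissue, Mir34a is the broadly expressed member, whereas Mir34b and Mir34c are known from lung, brain and testis.

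The mature sequences show what joins the family. Of the 6 members, 5 matched a hairpin in the RefSeq table (build GRCm38.p6) and Mir449b did not, and 9 mature arms were listed for the 5. The 5p arms are shown 5′ to 3′ with the seed in capitals, because it is the part they have in common.
miR-34a-5p: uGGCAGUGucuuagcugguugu
miR-34b-5p: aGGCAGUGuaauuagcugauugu
miR-449a-5p: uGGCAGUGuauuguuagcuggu
miR-449c-5p: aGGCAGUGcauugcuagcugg
miR-34c-5p was not listed. The seed GGCAGUG occurred in 4 of the 1738 mature arms of the table, and 0 of these came from a gene outside the family. From base 2 on, miR-34b-5p and miR-449a-5p were identical over 9 bases, miR-34a-5p shared 8 bases with each of them, and miR-449c-5p shared 7 with each of the other listed 5p arms. The 3p arms of the neighbours Mir34b and Mir34c are shown because they have a seed of their own, AUCACUA, which 2 of the 1738 listed arms carried.
miR-34b-3p: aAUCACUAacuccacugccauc
miR-34c-3p: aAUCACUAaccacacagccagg

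The tables count reads per hairpin gene, so the 5p and 3p arms enter 1 value and the seed in use cannot be told from it. Reads with several places of origin in the genome were not counted, which touches genes with near-identical copies. The longest run of bases shared between any 2 of the 5 listed hairpins was 11, and each of the 9 listed mature arms was found in 1 annotated miRNA gene. No listed mature arm thus has an exact copy in another miRNA gene. These checks look for exact matches alone and cannot see arms that differ by a few bases. They also leave out miR-34c-5p and Mir449b, which were not listed. Whether reads were lost or exchanged between members, such as Mir34b and Mir34c, was not tested. No correction for hairpin length was made, on the assumption that a read covers a mature arm. The listed arms have 21 to 23 bases, and the lengths and positions of the reads were not examined.

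The 6 genes lie at 3 loci (GENCODE M21, mouse build mm10). Mir34a (ENSMUSG00000065493.1) lies on the plus strand of chromosome 4 from 150068454 to 150068555. Over 17 bases it overlaps an exon of Gm37795 on the same strand, a transcript whose status is not settled in the annotation. Mir34c (ENSMUSG00000065587.1) lies on the minus strand of chromosome 9 from 51103034 to 51103110. Mir34b (ENSMUSG00000065492.1) lies beside it from 51103562 to 51103645, with 451 bases between them, and both are inside an intron of Btg4, which runs on the opposite strand. Mir449c (ENSMUSG00000076146.1), from 113035983 to 113036091, Mir449b (ENSMUSG00000078027.1), from 113037419 to 113037498, and Mir449a (ENSMUSG00000065575.1), from 113037534 to 113037624, follow each other on the plus strand of chromosome 13 in an intron of Cdc20b. Mir449b and Mir449a are 35 bases apart.

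Depth was 3797107 counts on miRNA genes in replicate 1 and 5034257 in replicate 2. Values are CPM, a gene's counts scaled so that all miRNA genes of its library sum to 1000000, with the mean ± SD of 2 libraries. Where a gene had 0 counts, up to 3 remain possible, which is worth 0.790 CPM in replicate 1 and 0.596 CPM in replicate 2. Intervals of a single library are Wilson 95% intervals and cover counting error only. They do not cover repeated reads of the same molecule, for which no correction was made here. A gene was taken as detected where both libraries gave it 10 counts or more, which held for 358 genes and for 4 of the 6 members.

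As a whole the family was a small part of the adrenal microRNAs. It held 8214 counts in replicate 1, or 0.216% of miRNA counts (0.212 to 0.221), and 3865 in replicate 2, or 0.0768% (0.0744 to 0.0792). The mean was 0.147% ± 0.0987 (SD, n = 2), so the spread between the libraries was of the size of the level itself. CPM and shares are parts of a total, of which Mir122 took 2896 CPM in replicate 1 and 214538 CPM in replicate 2. Over totals without Mir122 the mean family share was 0.157%. Nearly all of the family's counts came from Mir34c and Mir34a. Mir449a and Mir34b were low, and Mir449b and Mir449c were at the limit of detection.

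Mir34c, the more abundant member of the chromosome 9 pair, had the highest mean level of the family and the widest spread. It had 5663 counts in replicate 1, which is 1491 CPM (1453 to 1531), and 1522 counts in replicate 2, which is 302.3 CPM (287.5 to 317.9). Its mean was 896.9 ± 840.8 CPM (SD, n = 2), rank 84 of all miRNA genes. Within the libraries it ranked 64 in replicate 1 and 125 in replicate 2, so the mean describes neither library well.

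Mir34a, the broadly expressed member, differed less between the libraries than Mir34c did, though its intervals in CPM without TMM scaling did not overlap. It had 2022 counts and 532.5 CPM (509.8 to 556.2) in replicate 1, and 1979 counts and 393.1 CPM (376.2 to 410.8) in replicate 2. Its mean of 462.8 ± 98.6 CPM (SD, n = 2) put it at rank 110, and it ranked 111 and 109 in the single libraries. Its levels fell between the pair of Mir34c values, so the mean order of Mir34c above Mir34a does not hold beyond the spread.

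Mir449a was the single member of the chromosome 13 group that passed the detection minimum. It had 357 counts and 94.0 CPM (84.8 to 104.3) in replicate 1, and 301 counts and 59.8 CPM (53.4 to 66.9) in replicate 2, with a mean of 76.9 ± 24.2 CPM (SD, n = 2) at rank 201. Both values lay below both values of Mir34a and of Mir34c. The neighbours that are transcribed in the same direction in the same intron were almost uncounted. Mir449b had 2 counts in replicate 1 and 0 in replicate 2, and Mir449c had 0 and 3. Each was at or under 3 counts in each library, the limit where 0 are seen, so no level and no fold can be given for either, and a low level cannot be told from absence at this depth.

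Mir34b, which lies beside Mir34c on the same strand, was the lowest of the detected members. It had 170 counts and 44.8 CPM (38.5 to 52.0) in replicate 1, and 60 counts and 11.9 CPM (9.26 to 15.3) in replicate 2. The mean was 28.3 ± 23.2 CPM (SD, n = 2) at rank 253, and the ranks in the single libraries were 229 and 278. Its values did not overlap those of Mir449a, the next above it on the mean. The plot of levels by member shows this order and the gap between the libraries for Mir34c and Mir34b.

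**Figure D1:**
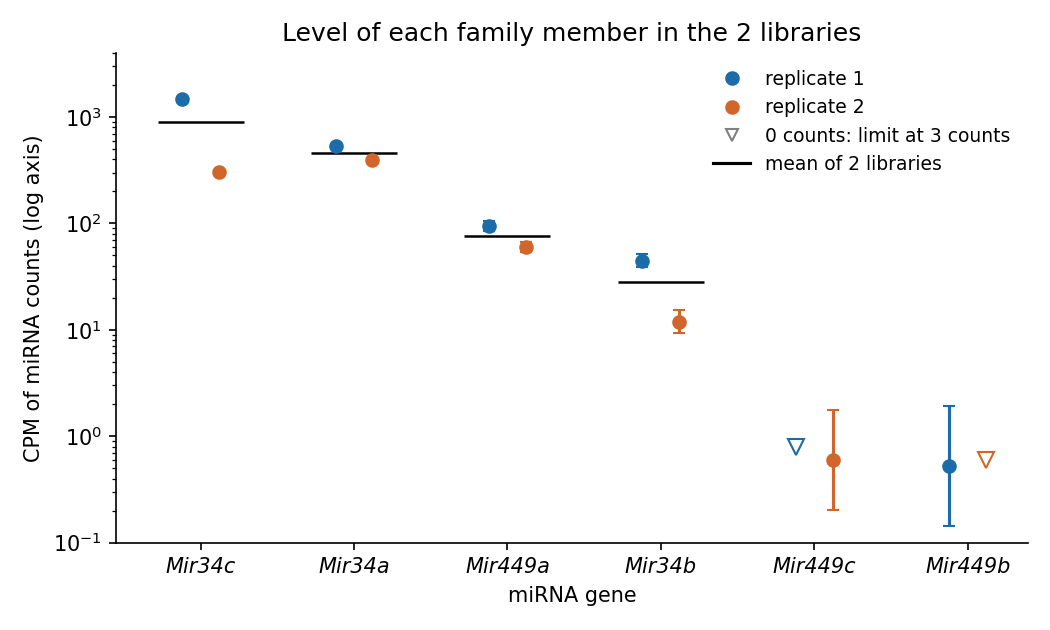
Level of each member in CPM on a log axis, with replicates 1 and 2 as points, Wilson 95% intervals of counting error as bars, the mean of 2 libraries as a black line where both have counts, and open triangles at the limit of 3 counts where a library had 0. Mir34c stood at 1491 and 302.3 CPM, while Mir34a stood at 532.5 and 393.1 CPM.

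The leading member and the leading locus were not the same in the libraries. In replicate 1 the Mir34b and Mir34c locus held 71.0% of the family's counts (70.0 to 72.0) and Mir34a 24.6% (23.7 to 25.6). In replicate 2 Mir34a held 51.2% (49.6 to 52.8) and the Mir34b and Mir34c locus 40.9% (39.4 to 42.5). The Mir449 locus took 4.37% (3.95 to 4.83) and 7.87% (7.06 to 8.76). On the mean of the libraries the shares were 56.0% ± 21.3 for Mir34b with Mir34c, 37.9% ± 18.8 for Mir34a and 6.12% ± 2.47 for the Mir449 locus (SD, n = 2). These shares rest on counts within a library and need no scaling between libraries.

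**Figure D2:**
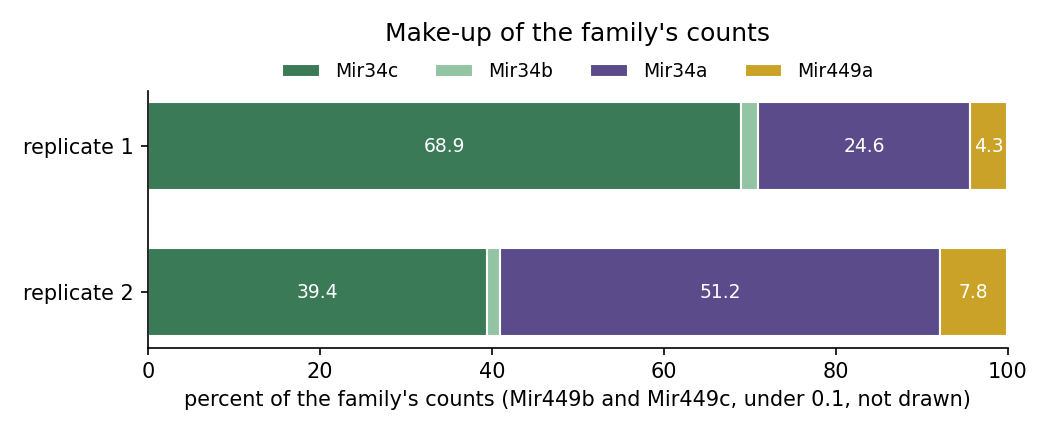
Percent of the family's summed counts held by each member in each library, as stacked horizontal bars from 0 to 100. Mir34c holds 68.9% in replicate 1 and 39.4% in replicate 2, and Mir34a 24.6% and 51.2%.

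Ratios between members compare the libraries without any scaling. Mir34c had 2.80 times the counts of Mir34a in replicate 1 (exact 95% interval 2.66 to 2.95) and 0.769 times in replicate 2 (0.719 to 0.823). The change of that ratio from replicate 1 to replicate 2 was -1.86 on the log2 scale, with an exact conditional 95% interval of -1.99 to -1.74. Against Mir449a, the ratio of Mir34c changed by -1.65 (-1.89 to -1.41). The ratio of Mir34a to Mir449a, members at separate loci, was 5.66 in replicate 1 and 6.57 in replicate 2, a change of 0.22 with an interval of -0.03 to 0.46 that includes no change. Of the 6 pairs among the 4 detected members, the 4 that set a chromosome 9 gene against Mir34a or Mir449a had intervals that leave out 0.

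Within the chromosome 9 pair the proportion changed less than that of either gene against Mir34a or Mir449a. This was not particular to neighbours, since the ratio of Mir34a to Mir449a, at separate loci, changed by 0.22 (-0.03 to 0.46). Mir34b made up 2.91% of the counts of the pair in replicate 1 (95% interval 2.51 to 3.38). In replicate 2 its part was 3.79% (2.96 to 4.85). Mir34c had 33.3 times the counts of Mir34b in replicate 1 and 25.4 times in replicate 2. The change of that ratio was -0.39 on the log2 scale, with an interval of -0.83 to 0.06. A difference between the libraries in this ratio was not detectable at the 60 counts of Mir34b in replicate 2, and the interval leaves room for a change of up to 0.83.

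Set against all miRNA genes, Mir34b and Mir34c were lower in replicate 2 and the other detected members were not called. Log2 ratios are replicate 2 over replicate 1 after TMM scaling of the libraries (edgeR's trimmed mean of M values), with exact 95% intervals of counting error. Mir34c stood at -1.87 (-1.96 to -1.79), 3.66-fold lower in replicate 2 (3.46 to 3.88). Mir34b stood at -1.47 (-1.93 to -1.05), 2.77-fold lower (2.07 to 3.81). Mir449a stood at -0.22 (-0.45 to 0.00) and Mir34a at -0.01 (-0.10 to 0.08), a value whose sign turned with DESeq2 size factors and in the unstranded column. The Mir34b and Mir34c locus together stood at -1.86 (-1.94 to -1.78), and the family sum at -1.06 (-1.12 to -1.01).

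The test was an exact binomial test, two-sided, of the pair of counts of every detected gene, with p-values adjusted over the 358 genes by Benjamini and Hochberg's method. To be called, a gene needed an adjusted p under 0.05 and a difference of 2-fold or more. In this exact test the adjusted p was 1.1e-12 for Mir34b, 0.074 for Mir449a and 0.89 for Mir34a, and that of Mir34c was 0 at the precision of the software. Of the 4 detected members, 2 were called lower and 0 higher, where 8.66% of all detected genes were called lower and 9.22% higher. The median log2 ratio was -0.85 over the 4 detected members and -0.06 over all 358 genes. Both called members lie at 1 locus. Of the 358 genes, 4 had a lower ratio than Mir34c, 14 a lower one than Mir34b, 142 than Mir449a and 189 than Mir34a.

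That test asks whether reads of this pair of libraries differ beyond counting error, and it says nothing of animals or conditions. By it, 67.9% of the detected genes had an adjusted p under 0.05 when no fold was required. In edgeR's exact test, with a biological coefficient of variation of 0.444 estimated from the same 2 libraries, p was 0.0507 for Mir34c and 0.128 for Mir34b before adjustment, and the adjusted p was 1 for all 4 members. That dispersion comes from the very difference under test, so whether the difference of Mir34c exceeds the spread between animals cannot be told from 2 libraries. In bulk tissue, fewer cells of a type and less RNA per cell cannot be told apart.

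**Figure D3:**
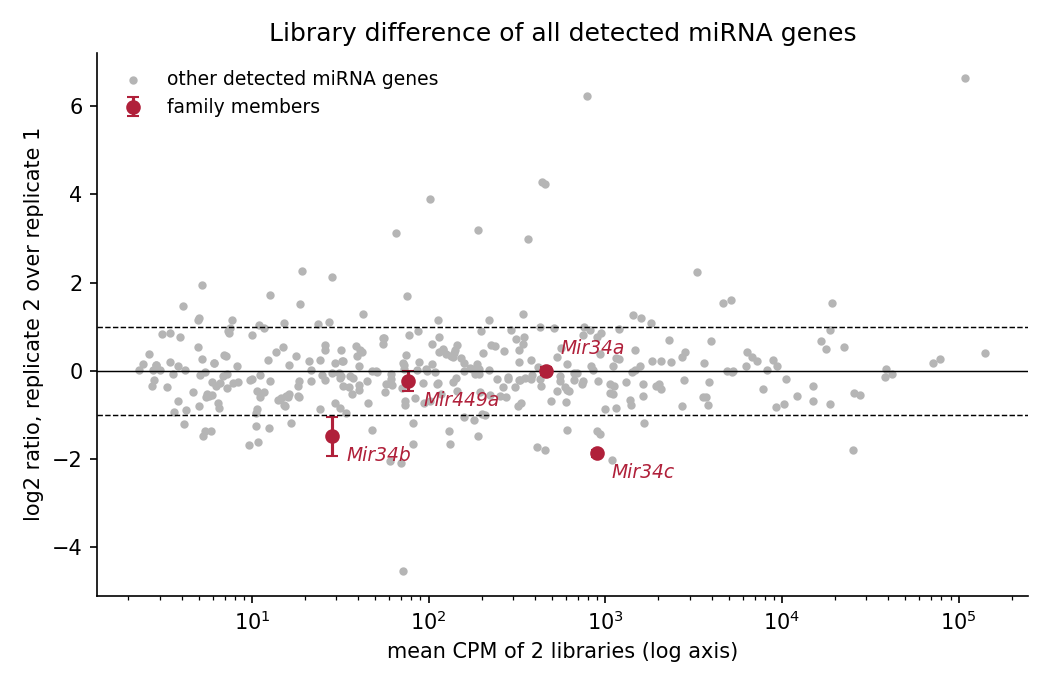
Log2 ratio of replicate 2 over replicate 1 against the mean CPM (log axis) for the 358 detected genes, with the 4 detected members in red, bars of 95% counting error on them, and dashed lines at a log2 ratio of 1 and -1. Mir34c at -1.87 and Mir34b at -1.47 lie under the lower line, and Mir34a and Mir449a lie between the lines.

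The scaling between libraries sets the zero of these ratios. With library totals alone the median of all genes moved from -0.06 to -0.49, the calls went from 33 higher and 31 lower to 18 higher and 79 lower, and Mir34c stood at -2.30, Mir34b at -1.90, Mir449a at -0.65 and Mir34a at -0.44. A scaling shifts every gene by the same amount, so distances to the median of all genes do not depend on it by construction. These were -1.82 for Mir34c, -1.42 for Mir34b, -0.17 for Mir449a and 0.05 for Mir34a.

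Markers of other tissues differed between the same libraries. In CPM of replicate 1 and replicate 2, Mir122 of the liver had 2896 and 214538. The 9 striated muscle genes summed to 31.3 and 1568, with Mir1a-1, Mir133a-1 and Mir133a-2 at 0 in both libraries, and the 4 kidney and gut genes summed to 109.0 and 1155. The 7 epithelial genes summed to 1590 and 1125, the 7 neuroendocrine genes to 39895 and 21319, and the 8 neuronal genes to 98.0 and 82.2, with Mir9-2 and the 3 Mir124a copies at 0. Endothelial Mir126a had 142267 and 140629, the 4 leukocyte genes 2160 and 1070, and the 3 erythroid genes 2236 and 560.0. The list for multiciliated epithelium consists of members of the family, and summed to 1631 and 374.6, of which Mir34c was the greater part. Mir1a-1, Mir133a-1, Mir133a-2, Mir9-2 and the Mir124a genes are numbered copies, and reads that fit several copies were not counted. Their values of 0 therefore cannot be read as absence, and sums that hold numbered copies are uncertain. The sums are CPM without TMM scaling, and a sum can be set by 1 gene. By gene, after TMM scaling, 9.22% of all detected genes were called higher in replicate 2 and 8.66% lower. Of the 7 epithelial genes, 4 were called higher and 1 lower, with a median log2 ratio of 1.52, against the direction of their sum. Both detected genes of the muscle list and both of the kidney and gut list were called higher, as was Mir122. The median was -0.47 for the neuroendocrine list with 1 called higher, 0.23 for the leukocyte list with 1 called lower, -0.37 for the erythroid list with 1 called lower, and -0.22 for the 2 detected neuronal genes with 0 called. Their part in the result was not tested. No list held a marker particular to the adrenal cortex, so the tissue label was not checked against one.

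Genes next to the members in level differed widely in their own library difference. On the mean, Mir34c stood between Mir31 at 898.6 CPM and Mir342 at 847.8 CPM, with Mir182 at 899.5 above and Mir328 at 828.6 below. Of these, Mir31 had a log2 ratio of -1.38, and Mir182, Mir342 and Mir328 had 0.76, 0.01 and 0.12. Mir34a stood among Mir137, Mir708, Mir376c and Mir483 at 496.0 to 455.2 CPM, Mir449a among Mir410, Mir1843b, Mir539 and Mir128-1 at 81.6 to 74.5 CPM, and Mir34b among Mir383, Mir331, Mir92b and Mir760 at 28.5 to 25.9 CPM. The genes most like Mir34c in their ratio, among 260 others with a mean of at least 100 counts, were Mir21a, which is induced in many settings of stress and growth, Mir376c of the imprinted Dlk1-Dio3 region, and Gm26117. They stood at -1.79, -1.79 and -1.73, within 0.15 of Mir34c. With 2 libraries this likeness is that of 1 ratio and describes no shared pattern.

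The other microRNA genes that the literature links to p53 differed between the libraries in both directions. The list held 19 genes, of which Mir605 matched no annotated symbol and 15 were detected. Of the 15, 3 were called higher and 1 lower in replicate 2, beside the 9.22% higher and 8.66% lower among all detected genes. The median log2 ratio was -0.13, beside -0.06 over all detected genes. All 4 of these calls came from the 10 genes reported as raised in transcription by p53. Of those, 7 were detected, with 3 higher, 1 lower and a median of 0.52.

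Mir192 and Mir194-2, neighbours that are also abundant in kidney and gut, were higher at 4.28 (4.08 to 4.49) and 3.18 (2.96 to 3.41). Mir192 had 56.6 CPM in replicate 1 and 817.6 in replicate 2. Mir145a, a smooth muscle gene that stands in both of the raised lists, was higher at 1.27 (1.22 to 1.33), from 1024 CPM to 1836 CPM. Mir141 of the miR-200 family was lower at -1.48 (-2.65 to -0.49), from 32 and 11 counts. In edgeR's exact test the adjusted p was 0.0045 for Mir192, 0.086 for Mir194-2 and 1 for Mir145a and Mir141. Mir200c, Mir107 and Mir149 were not called, at -0.73, -0.79 and 0.52, and Mir194-1 and Mir215 had fewer than 10 counts in a library.

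The 4 genes whose processing p53 is reported to raise were all detected, with 1 higher, 0 lower and a median of 0.14. Apart from Mir145a these were not called. Mir143, the most abundant gene of the whole list at 38121 ± 10331 CPM (SD, n = 2), stood at -0.13, Mir15a at 0.42 and Mir16-1 at -0.26. Of the 6 genes of the Mir17 to Mir92 cluster, which p53 is reported to repress, 5 were detected and 0 were called, with a median of -0.19. Mir17 stood at -0.59, Mir20a at -0.58, Mir18 at -0.19, Mir19b-1 at 0.86 and Mir92-1 at 0.95, and Mir19a had 3 and 2 counts. Mir194-2, which was called higher, and Mir194-1, Mir16-1, Mir19b-1 and Mir92-1 are numbered copies, and their values are uncertain, since reads that fit several copies were not counted.

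**Figure D4:**
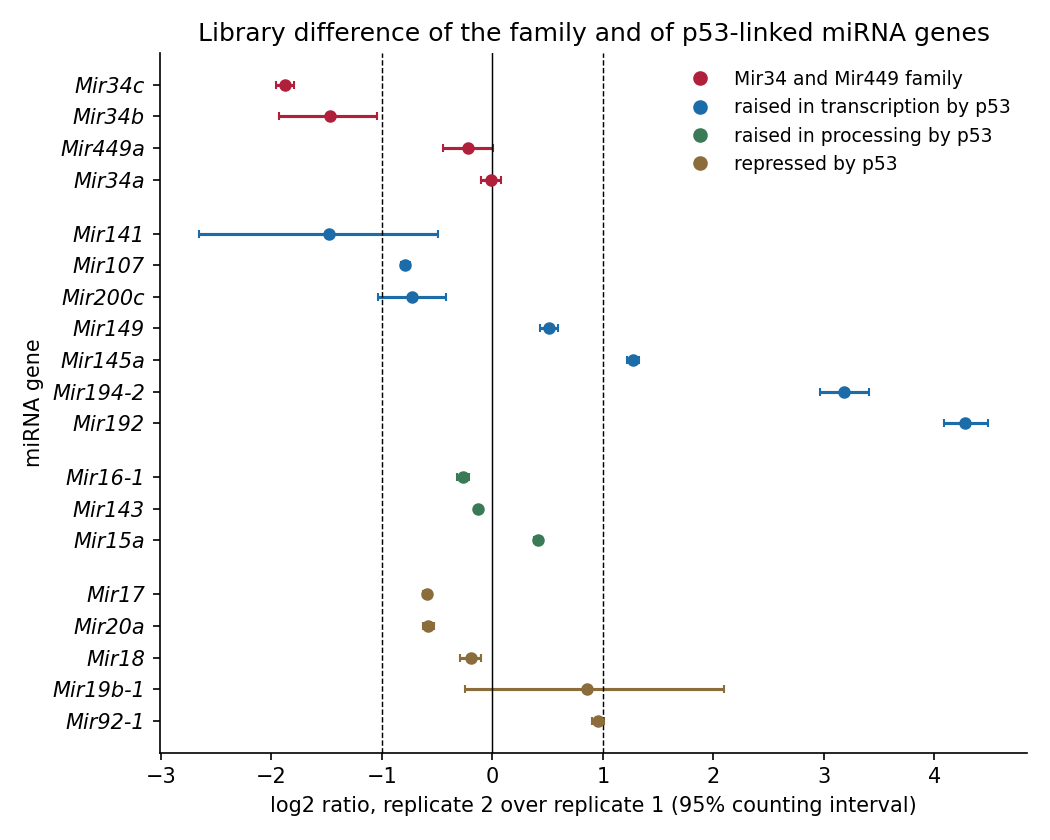
Log2 ratio of replicate 2 over replicate 1 with 95% counting intervals for the 4 detected family members and the 15 detected genes of the p53-linked list, with dashed lines at -1 and 1. Mir145a stands in both raised lists and is drawn once, and the list spans -1.48 for Mir141 to 4.28 for Mir192.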

How the data were processed

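The authors deposited raw, unnormalized counts per miRNA gene for each library. Build mm10 and annotation GENCODE M21 are named in the text file that accompanies each table. Which aligner, counter and trimming were used is not given in the sources used here. No header names the columns. The column read as the gene's own strand was used, and 4 summary lines stayed out of library sizes. Counts on miRNA genes were 35.4% of the reads of replicate 1 and 45.0% of those of replicate 2, and reads mapping to several places 28.0% and 25.0%. All 2202 identifiers matched GENCODE M21, from which symbols and coordinates were taken.

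CPM, shares, Wilson intervals, and TMM factors (1.16 and 0.862, over the detected genes) were computed. Log2 ratios used a prior count of 0.5, and each detected gene had an exact binomial test across the whole table. A quasi-likelihood test could not be made, there being no replicate within either side. The steps were tested on simulated counts that varied by counting error alone, so that test says nothing of variation between animals. The members and lists were chosen with earlier results of these data known. Named genes were the members, the 2 detected genes above and below each in mean CPM, the 3 nearest to Mir34c in ratio, and, of the p53-linked list, those called and the most abundant; the remaining list genes and the marker genes were chosen for naming with their values in view. Labels do not say that the libraries came from separate animals beyond the replicate number, so p-values measure only the difference of these libraries. Alternatives were the unstranded column, other totals, DESeq2 size factors, other count minimums, a prior count of 5, edgeR's exact test, and each replicate alone. Scaling and dispersion came from edgeR 4.0.16 and DESeq2 1.42.0 under R 4.3.3, tests from scipy 1.17.1 with pandas 2.3.3 under Python 3.11.15, and plots from matplotlib 3.10.9.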

Additional observations from a re-analysis of the deposited data

Results flagged for a closer look

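Reads on the strand opposite to a member, which enter no value of the report, were above the limit of 3 counts that a count of 0 allows in 1 case. Mir34b had 4 opposite-strand counts in replicate 1, beside 170 on its own strand, and 2 in replicate 2, beside 60. The other 5 members had 0 opposite-strand counts in both libraries.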

How the results depend on the processing

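Mir34c and Mir34b stayed lower in replicate 2 under every alternative that tested them, and past the threshold under all except edgeR's exact test, where Mir34c stood at -1.87 with an adjusted p of 1, beside 0 at the software's precision under the others. The log2 ratio of Mir34c ranged from -2.30 with library totals alone to -1.82 with DESeq2 size factors. The members that were not called moved with the scaling as well. With library totals alone Mir34a stood at -0.44 and Mir449a at -0.65, and over totals without Mir122 Mir449a stood at -0.31, all under 2-fold. Mir34a, not called in any setting, turned to 0.048 with DESeq2 size factors and to 0.021 in the unstranded column. The counts of Mir34a were 2022 and 1979 in both columns, so these settings differ for it in the scaling between libraries alone. Calls became 18 higher and 79 lower with library totals alone, 18 and 19 with a minimum of 100 counts, which tests fewer genes and leaves out Mir34b, and 5 and 1 in edgeR's exact test, in which 15 genes had an unadjusted p under 0.05. The family share was 0.0768% without replicate 1 and 0.216% without replicate 2, so 1 library decides it. Over the total of all reads in place of miRNA counts, a larger denominator, the mean family share was 0.0556% and not 0.147%, and the mean level of Mir34a was 182.7 and not 462.8 per 1000000. Without replicate 1, the Mir34b and Mir34c locus held 40.9% of the family's counts and Mir34a 51.2%. Without replicate 2, these shares were 71.0% and 24.6%. No paired analysis was possible because the series has 1 group. The 60 counts of Mir34b in replicate 2 limit its ratio, and Mir449b and Mir449c were too few to compare.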
